A study of Ovis aries with 18 samples.

Results

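The proteasome and ubiquitin system was examined for allelic imbalance (AI), an unequal number of RNA-Seq reads from the reference and the alternate allele of a SNP in animals that carry both. Its members were chosen by symbol: autosomal genes named as proteasome subunits and their assembly factors (PSMA to PSMG), as enzymes that activate, conjugate or ligate ubiquitin (UBA, UBE, UBR, HERC, HUWE, NEDD, CUL, KLHL, FBX, TRIM and RNF), as deubiquitinases (USP, UCHL, OTU and BAP1), as the segregase VCP with its UBX and UFD cofactors, or as SUMO or URM1. The rule found 184 of the 5810 genes and 744 of the 24355 SNPs in the table. Genes of these names on chromosome X, 6 in number with 14 SNPs, were left out. No SUMO gene was among the members, so URM1 was the single modifier. NEDD1 and NEDD9 entered by name alone and do not belong to the system. The median gene had 3 SNPs, 48 genes had a single SNP and KLHL25 had the most with 23. By the consequence given in the table, 417 of the SNPs were synonymous, 92 were missense and 167 lay in a 3' UTR.

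The samples were perirenal adipose tissue (PRAT) of 18 singleton sheep fetuses, of which 16 were labelled female and 2 male. They were taken at day 132 of a gestation of about 150 days, from unrelated ewes fed to maintenance, and all the fetuses had 1 sire. Each fetus was a separate sample of a single condition, so the design holds no treatment and no control, and the comparison at each SNP is between the alleles within an animal. The tissue is a mixture of cells, and a difference in the number of cells of a type cannot be told apart from a difference in RNA per cell.

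Ubiquitin is a small protein that cells attach to other proteins. An activating enzyme (E1) charges it, a conjugating enzyme (E2) carries it, and a ligase (E3) chooses the protein that receives it. The largest families of ligases are those with a RING domain and those built on a cullin scaffold with an adaptor that binds the target, while HECT ligases take up the ubiquitin themselves before passing it on. Deubiquitinases remove it again, and VCP pulls marked proteins out of complexes and membranes. Chains of ubiquitin send many proteins to the proteasome, a barrel-shaped protease (the core particle) capped by regulatory particles that unfold the target. In brown adipose tissue, proteasome activity is known to be needed for the turnover of proteins during heat production.

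The reads counted at all SNPs of the table ranged from 2970824 to 5334585 per animal, and the animals were called heterozygous at 330 to 468 member SNPs, where the median depth per animal was between 36.5 and 78 reads. Reference alleles made up 53.0% ± 0.735 (SD, n = 18) of the member reads. Among markers of adipose tissue, UCP1, the uncoupling protein of brown fat, had a median of 7057 to 20809 reads per SNP and animal, and ADIPOQ, the adipocyte hormone adiponectin, had 9830 to 16714. FABP4, PPARG, LPL and PRDM16 had no SNP in the table, so these markers could not be checked. RS929, labelled female, was called heterozygous at 29.1% of the X-linked SNPs, compared with 25.4% and 32.4% in the males and at least 54.1% in the other females. This bears on the alternative with females only and on no autosomal value.

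AI was called in 2 ways. The likelihood ratio test (LRT) of the study compares reads summed over the heterozygous animals under a Poisson model. Since summing treats all animals as one, a quasi-binomial test was added in which each animal is a replicate, with the spread between animals moderated by limma and P-values adjusted by Benjamini-Hochberg over all SNPs of the table. This second call is termed AI over animals. The share in the text is the fraction of reads with the reference allele in a heterozygous animal. At 0.5 the reads of the 2 alleles are equal in number. The dispersion is the variance of the shares between animals relative to counting error, and a dispersion of 1 is counting error alone.

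The system as a whole stood close to the background of the table. By the LRT at an unadjusted threshold of 0.05, 298 of 740 member SNPs (40.3%) showed AI, against 45% of all SNPs tested. More reads came from the reference allele at 216 of these (background 33.8%) and from the alternate allele at 82 (11.1% of members, background 11.1%). Over animals, 161 of 738 (21.8%) were called, against 24.5% of all SNPs. Of the 161, 133 favoured the reference allele (background 19.2% of SNPs tested) and 28 the alternate allele, which is 3.79% of the members tested and 5.24% of all SNPs. The median summed share was 0.516 for members and 0.519 for the whole table. At 85 member SNPs (11.5%) the call was joined by a mean share at least 0.1 away from 0.5, compared with 11.7% of the table, and these are termed far SNPs. There were 74 far SNPs on the reference side (background 9.13%) and 11 on the alternate side (background 2.53%), and the 85 lay in 39 genes (21.2%, background 21%). All heterozygous animals lay on one side of 0.5 at 96 of 736 member SNPs (background 13.2%), on the reference side at 75 (10.2%, background 10.5%) and on the alternate side at 21 (2.85%, background 2.63%). The animals differed from one another beyond counting error at 82 member SNPs (11.1%), against 15.4% of all SNPs. With 30 reads of each allele required in 5 heterozygous animals, fewer SNPs were tested. The counts were then 126 by the LRT, 84 over animals and 53 for a difference between animals. The number tested and the share over all SNPs were not taken at this depth. SNPs of 1 gene share reads and haplotypes, so these counts are not of independent events.

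By gene, 109 of 184 members (59.2%) had at least 1 SNP past the LRT, against 66% of all genes tested, and 67 (36.4%) had 1 past the test over animals, against 41.4%. In 49 genes the called SNPs all favoured the reference allele, in 6 all favoured the alternate allele, and in 12 the direction changed between SNPs of the same gene. This split was not made for all genes. Over the whole table, called SNPs also mostly favoured the reference allele (4655, against 1268 for the alternate allele). The plot of all members by role shows where the called SNPs lay. Over all SNPs tested, 24.5% were called. By role, the calls were 10 in the core particle (45.5% of those tested), 17 in the regulatory particle (31.5%) and 10 among E2 genes (30.3%). SNPs of PSMB4 gave 5 of the 10 calls in the core particle. HECT and other ligases had 10 (15.4%), cullins and adaptors 33 (20.9%), and RING ligases 43 (20.4%). Deubiquitinases had 28 (19.6%), and VCP and its cofactors had 1 (5.26%). The count for E1 genes is not reported here. Whether these roles differ was not tested.

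**Figure D1:**
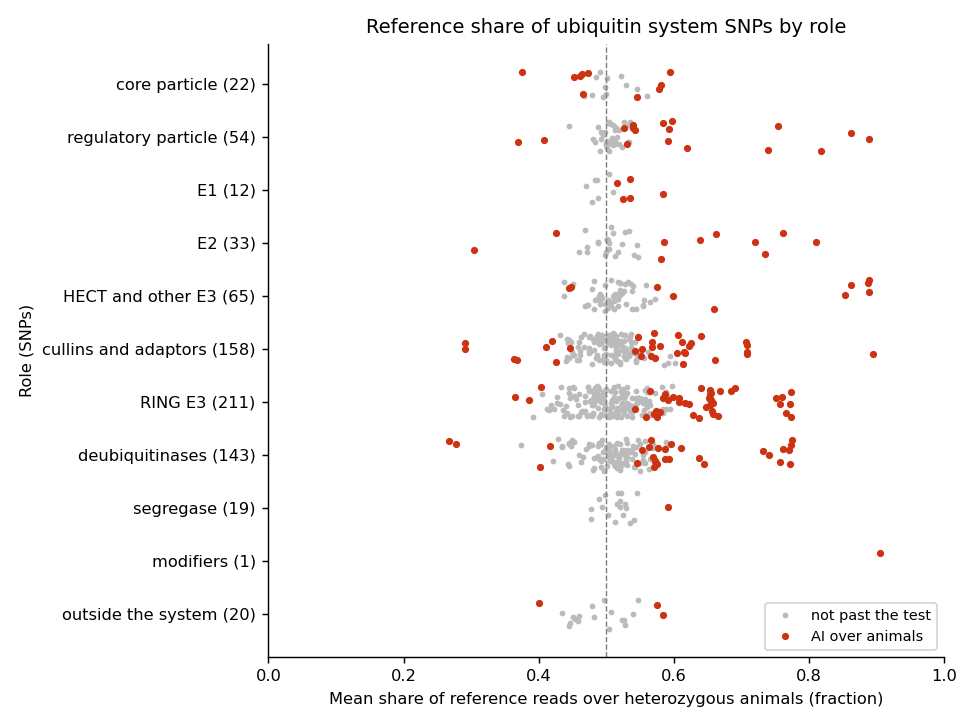
Each point is 1 SNP, placed by its mean share of reference reads over heterozygous animals (x axis, fraction) and its role (rows, with the number of SNPs heterozygous in at least 2 animals, jittered vertically). Red points passed the test over animals, grey points did not, and the dashed line marks 0.5; most SNPs lie close to 0.5 and the far points lie mainly on the reference side, with URM1 at 0.905.

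In the core particle, AI ran towards both alleles. PSMB4, a beta subunit of the barrel, favoured the alternate allele at 5 of its 5 SNPs, 4 of them missense. At the SNP farthest from equality (chromosome 1, position 100246889, Oar v3.1, missense) the 15 heterozygous animals had shares from 0.429 to 0.477, with a mean of 0.452 ± 0.015 (SD). All 15 animals therefore had more reads of the alternate allele, at a dispersion of 0.588 (adjusted P = 2.62e-08, quasi-binomial test with limma). Over all SNPs of PSMB4 the depth was between 398 and 881 reads per heterozygous animal, and single shares ranged from 0.403 to 0.502.

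PSMA2, an alpha subunit, had called SNPs in opposite directions 11 bp apart in its 3' UTR. The mean share was 0.595 ± 0.092 (n = 14) at position 78200843 of chromosome 4 and 0.375 ± 0.066 (n = 7) at position 78200854. The 2 other SNPs of the gene had means of 0.499 and 0.495 and were not called. PSMG1, a chaperone of core assembly, had 1 called SNP of 2, where the share was 0.581 ± 0.025 and above 0.5 in 10 of 10 animals. PSMB3, another beta subunit, had 1 called of 5 at 0.545 ± 0.031 (n = 12), and PSMB5, the subunit with chymotrypsin-like activity, had 1 of 2 at 0.578 ± 0.059 (n = 5). No SNP of PSMA3, PSMA4 or the immunoproteasome subunit PSMB9 passed the test over animals.

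In the regulatory particle the departures were larger at a few SNPs and absent from most others. Of its 14 genes, 7 had a call. PSMC5, an ATPase of the base, had 8 SNPs at 269 to 603 reads per heterozygous animal with mean shares between 0.499 and 0.518, and none was called. The single SNP of the ATPase gene PSMC2 had a share of 0.583 ± 0.037 and was above 0.5 in 9 of 9 animals (exact sign-flip permutation test, two-sided, p = 0.00391). PSMD4, the subunit that binds ubiquitin chains, favoured the reference allele at 5 called SNPs of 9. Its farthest SNP (chromosome 1, position 100063509, synonymous) had shares of 0.59, 0.59, 0.61, 0.62 and 0.68 in its 5 heterozygous animals. The mean was 0.619 ± 0.038 (adjusted P = 6.28e-05 over animals), while with 5 animals the exact sign-flip test cannot go below p = 0.0625.

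PSMC3, an ATPase, and PSMD11, a subunit of the lid, had far SNPs beside SNPs of the same gene near 0.5. At the PSMC3 SNP in the 3' UTR (chromosome 15, position 75477999) all 18 animals were called heterozygous, with shares from 0.673 through a median of 0.756 to 0.865. The mean of 0.754 ± 0.053 compared with 0.524 ± 0.057 (n = 11) at a SNP 143 bp away, which was not called, and with 0.526 ± 0.021 (n = 11) at a SNP in the coding sequence, which was. At PSMD11 the farthest SNP (chromosome 11, position 17340419, 3' UTR) had shares from 0.833 through 0.903 to 0.916 in 8 animals. A further 3' UTR SNP at 17339814 was also called, with shares of 0.852 and 0.870 in the 2 heterozygous animals. The remaining SNPs of PSMD11, at 17339502 and at 17339842, 28 bp from that SNP, had means of 0.494 and 0.497 over 11 animals each.

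PSMD5, a chaperone in the assembly of the regulatory particle, carried 3 SNPs within 4 bp of its 3' UTR (chromosome 2, positions 2685424, 2685426 and 2685427), and their shares followed each other's genotypes. At the first of them the shares spread from 0.1 through 0.615 to 0.860 over 13 heterozygous animals (dispersion 8.69). The 4 animals called 0/0 at the third SNP (homozygous for its reference allele) had 0.766 to 0.860, the 8 called 0/1 (heterozygous) had 0.390 to 0.725, and the 1 called 1/1 (homozygous for the alternate allele) had 0.1. These groups did not overlap. The third SNP itself had a mean of 0.738 ± 0.076 (n = 8), above 0.5 in 8 of 8 animals. At the 4 SNPs of PSMD5 farther along the gene with 9 heterozygous animals each, the mean shares were between 0.492 and 0.533.

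PSMD8, a subunit of the lid, showed the same kind of split. At position 47381374 of chromosome 14, annotated as downstream of the gene, 11 animals had shares from 0.628 through 0.877 to 0.916 (dispersion 4.68). The SNP 2 bp before it was called with a further allele (allele 2) in most animals. The 8 animals called 0/2 there had a mean share of 0.882 ± 0.026 and the 3 called 1/2 had 0.648 ± 0.023, with ranges of 0.838 to 0.916 and 0.628 to 0.673. In the 7 animals called 0/0 at 47381374, the alternate base held 0% to 7.89% of the reads, with a median of 0%. The synonymous SNP of PSMD8 at 47381265 had a mean of 0.503 ± 0.045 (n = 11). The splits by neighbouring genotype in PSMD5 and PSMD8 were noticed in the values and are given without a test. Split in the same way, the groups overlapped in PSMA2 at 78200843 (0.403 to 0.699 in 8 animals called 0/0 at the neighbour and 0.571 to 0.712 in 6 called 0/1) and in FBXO22 at position 30251025 (0.544 to 0.684 in 5 and 0.653 to 0.717 in 3).

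**Figure D2:**
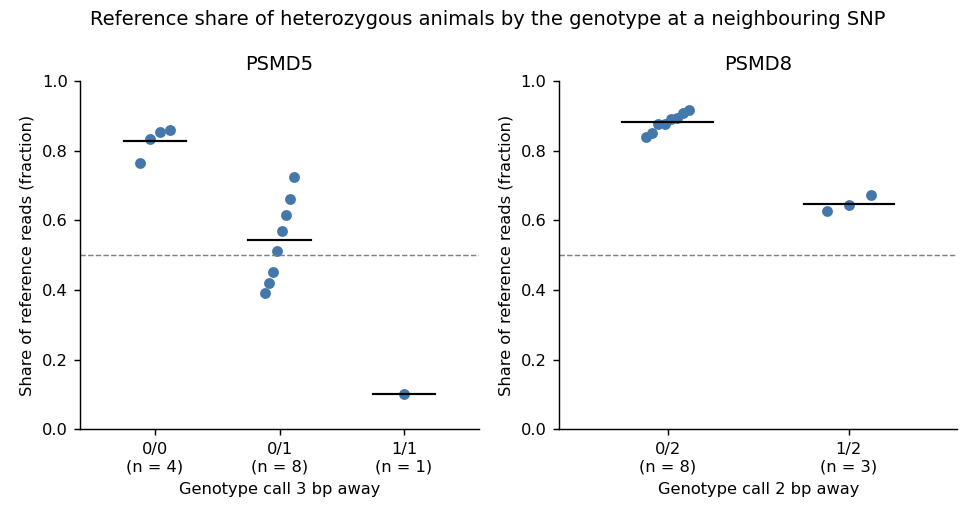
Share of reference reads in each heterozygous animal (points, fraction) at 1 SNP of PSMD5 (left) and of PSMD8 (right), grouped by the genotype call at the SNP 3 bp or 2 bp away, with n animals and bars at group means. In PSMD5 the shares fall from 0.766 or more at 0/0 to 0.1 at 1/1, and in PSMD8 the 3 animals called 1/2 lie below all 8 called 0/2.

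PSME4, the proteasome activator PA200, had called SNPs in both directions among 8. The alternate allele was higher at positions 70050856 (0.369 ± 0.113, n = 10) and 70110396 (0.408 ± 0.060, n = 9) of chromosome 3, and the reference allele was higher at 70059612 (0.593 ± 0.087, n = 9) and 70059627 (0.591 ± 0.092, n = 9). At 70059423, 70059441 and 70059543, close to the latter pair, the animals differed with dispersions of 4.12 to 4.33, and in RS910 the shares were 0.21, 0.21 and 0.38 where RS940 had 0.61, 0.63 and 0.74. The columns of RS910 are written PS910 in the table and were matched to this animal by the number alone.

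Among the E1 genes, UBA2, a subunit of the E1 of SUMO, had 1 called SNP of 4 (0.583 ± 0.034, above 0.5 in 7 of 7 animals), and the single SNPs of UBA6 and UBA7 were not called.

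Among the E2 genes, UBE2Z, which carries ubiquitin and its relative FAT10, had 3 called SNPs of 11. One was annotated as a splice donor variant (chromosome 11, position 37147200), was called heterozygous in all 18 animals, and had shares from 0.661 through 0.806 to 0.917, with a mean of 0.809 ± 0.079 (exact sign-flip permutation test, two-sided, p = 7.63e-06, the smallest that 18 animals allow). The other called SNPs of UBE2Z, 37151502 and 37151506, lay 4 bp apart at 0.720 ± 0.103 (n = 15) and 0.761 ± 0.103 (n = 12). A neighbour 4 bp before them was at 0.497 ± 0.099 (n = 18), and the other 7 SNPs of the gene had means between 0.469 and 0.510. UBE2S, the E2 that extends chains for the anaphase-promoting complex, had a missense SNP with a share of 0.638 ± 0.075, above 0.5 in 13 of 13 animals (exact p = 2.44e-04), and a synonymous SNP 109 bp away at 0.517 ± 0.049. No read of the other allele was seen at the missense SNP of UBE2S in its homozygous animals.

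UBE2O, a hybrid of E2 and E3, and UBE2J1, an E2 of the endoplasmic reticulum, departed at SNPs where homozygous animals also carried both bases. At the UBE2O SNP (chromosome 11, position 54349010) the 10 heterozygous animals had 17.2% to 44.8% of the reference base, and the 8 animals called homozygous for the alternate allele had 0% to 27.0%. At the UBE2J1 SNP (chromosome 8, position 47985870) the alternate base made up 11.8% to 40.0% of the reads in 15 heterozygous animals and 11.5% to 26.3% in the 3 called homozygous for the reference allele. The groups overlapped at both SNPs.

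The same comparison was made at the 20 genes whose best SNP lay farthest from 0.5. The plot of these 20 SNPs shows the shares of each animal. URM1, a ubiquitin-like modifier that also acts in the thiolation of transfer RNA, had the farthest mean of all members, 0.905 ± 0.011 over 13 heterozygous animals (chromosome 3, position 7828696, a stop codon retained by the change). Its shares ran from 0.882 through 0.908 to 0.924 at 195 to 426 reads, all on the reference side, with a dispersion of 0.421 (adjusted P = 3.14e-22 over animals, quasi-binomial test with limma). The alternate base held 7.62% to 11.8% of the reads in heterozygous animals. In the 5 animals called homozygous for the reference allele of URM1 it held 5.09% to 6.81%, at 239 to 452 reads, and no animal was called homozygous for the alternate allele.

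**Figure D3:**
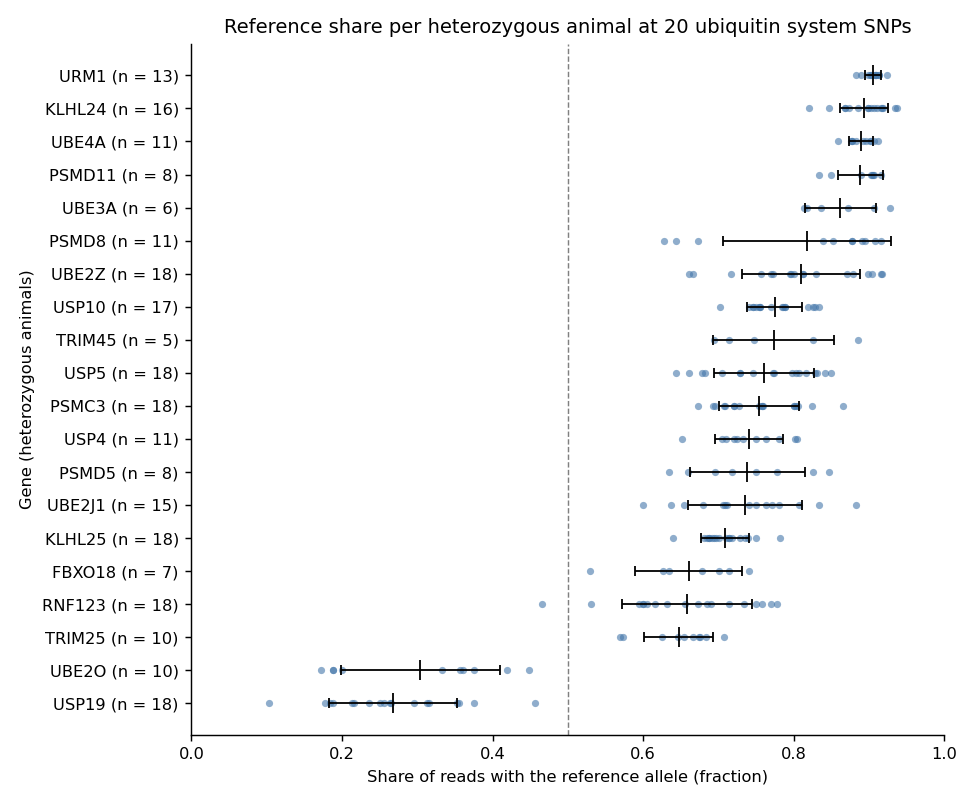
Share of reference reads (x axis, fraction) in each heterozygous animal (points) at the best SNP of the 20 genes farthest from 0.5, with the mean and SD over animals (black tick and bar) and the number of heterozygous animals beside each gene. URM1 sits at 0.905 with the narrowest spread, UBE2O and USP19 are the genes on the alternate side, and 1 animal of RNF123 crosses the dashed line at 0.5.

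KLHL24, a cullin adaptor, UBE4A, a ligase that extends chains, and PSMD11 also had the second base in homozygous animals. At the KLHL24 SNP (chromosome 1, position 201672375, 3' UTR) the alternate base held 6.32% to 18.0% of the reads in 16 heterozygous animals and 5.56% and 5.71% in the 2 homozygous for the reference allele. At the UBE4A SNP (chromosome 15, position 28571288, missense) it held 8.89% to 14.2% in 11 heterozygous and 4.44% to 11.4% in 7 homozygous animals. At the PSMD11 SNP it held 8.41% to 16.7% in 8 heterozygous and 1.30% to 12.1% in 10 homozygous animals.

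In each of KLHL24, UBE4A and PSMD11, some other SNPs of the gene stood near equality. KLHL24 had means of 0.50 and 0.48 at SNPs of which the nearer was 406 bp away, while its remaining SNP (position 201669503) had a share of 0.894 in the 1 heterozygous animal and an average of 5.52% of the alternate base in 17 homozygous animals. At the other far SNP of PSMD11 the 16 homozygous animals had an average of 3.21%. UBE4A had 3 SNPs within 5 bp at 0.887 to 0.889, and its other 14 SNPs had means between 0.445 and 0.539, of which 2 were called with the alternate allele higher. USP4, a deubiquitinase, had a 3' UTR SNP at 0.740 ± 0.046 (n = 11), where the alternate base held 18.5% to 24.5% in 7 animals called homozygous for the reference allele, while its 2 other SNPs had means of 0.511 and 0.541. The source of the second base in homozygous animals was not tested.

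At another set of far SNPs there was no homozygous animal to compare. All 18 animals were called heterozygous at a far SNP of USP5, PSMC3, USP19, RNF123, KLHL25 and UBE2Z. USP5, which recycles free ubiquitin chains, had 2 SNPs 3 bp apart near a splice site at 0.732 ± 0.065 and 0.761 ± 0.066. USP19, a deubiquitinase linked to muscle wasting, had 2 SNPs 2 bp apart at 0.267 ± 0.085 and 0.278 ± 0.092, with the alternate allele higher in 18 of 18 animals at the first, and the remaining SNP of USP19 was at 0.516 ± 0.046 (n = 9).

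SNPs called heterozygous in the same animals and within 5 bp of each other formed 20 runs with 57 member SNPs. Of these SNPs, 34 were called over animals. Such runs were not sought over the whole table, so these counts have no background. RNF123, a ligase known for degrading the cell cycle inhibitor p27, had the longest run, 10 SNPs within 15 bp (chromosome 19, positions 50429356 to 50429370), and their means lay between 0.652 and 0.658. A SNP of RNF123 only 70 bp beyond the run had a mean of 0.543 ± 0.077 (n = 17) and was also called over animals. KLHL25, the adaptor through which a cullin ligase marks ATP citrate lyase, had 6 SNPs within 7 bp in its 3' UTR (chromosome 18, positions 15752287 to 15752293). Their mean shares were either 0.292 or between 0.706 and 0.709, and the other 17 SNPs of KLHL25 had means between 0.444 and 0.579. USP10, a deubiquitinase of p53, had 5 SNPs within 8 bp at 0.756 to 0.775 in 17 animals, and its other SNPs had 0.569 and 0.550 and were not called. At the farthest SNP of USP10, the 1 animal called homozygous for the reference allele had 9.375% of the alternate base.

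These features were then counted by the size of the departure. Of the 85 member SNPs called over animals and at least 0.1 from 0.5, 33 (38.8%) were called heterozygous in 15 or more animals, 40 (47.1%) lay within 5 bp of another SNP, and 23 of the 62 that had homozygous animals (37.1%) showed 1% or more of the other base in them. Over all members, 75 of 740 SNPs (10.1%, background 9.94%) were called heterozygous in that many animals. Among the 577 members not called, the same figures were 5.72%, 5.20% and 1.25%. The same 3 figures for the whole table were 37.0%, 39.7% and 30.6% among far SNPs and 5.35%, 5.82% and 1.60% among SNPs not called. Far SNPs with homozygous animals to compare and none of these features numbered 31 of 85, in 21 genes. Over the whole table they numbered 1205 of 2822, in 761 genes. A filter chosen after seeing the data kept SNPs whose homozygous animals carried on average under 1% of the other base. It gave 102 calls over animals in place of 161, and the same count was not taken over all SNPs. The filter also removed every SNP without a homozygous animal to compare, so the fall does not measure the second base alone.

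TRIM45, a RING ligase known to repress MAPK signalling, held 9 of those 31 SNPs. All 12 of its SNPs, spread over 7267 bp of chromosome 1 from position 93666546, were called over animals with the reference allele higher. Mean shares were between 0.608 and 0.773, and homozygous animals carried on average at most 0.499% of the other base at each SNP. At the farthest SNP (position 93671614, synonymous) the 5 heterozygous animals had shares of 0.69, 0.71, 0.75, 0.83 and 0.88, with a mean of 0.773 ± 0.080 (adjusted P = 1.62e-05 over animals, quasi-binomial test with limma). With 5 animals the exact sign-flip permutation test cannot go below p = 0.0625.

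The animals heterozygous in TRIM45 fell into groups by genotype. At 7 SNPs the same 5 animals were heterozygous, and at 4 SNPs these 5 and 6 more. Averaged over the 4 shared SNPs, RS903, RS917, RS930, RS947 and RS953, which were heterozygous at both sets, had shares of 0.753, 0.773, 0.743, 0.778 and 0.793. The 6 that were heterozygous at the shared set alone had 0.580 to 0.639. The means were 0.768 ± 0.020 (n = 5) and 0.600 ± 0.022 (n = 6), and the ranges of these averages over the 4 SNPs did not overlap. At each of the 4 SNPs the animals differed beyond counting error (dispersions 2.98 to 5.34). The groups were noticed in the values and their difference is given without a test. The total reads of TRIM45 did not pass the test against genotype at any SNP.

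**Figure D4:**
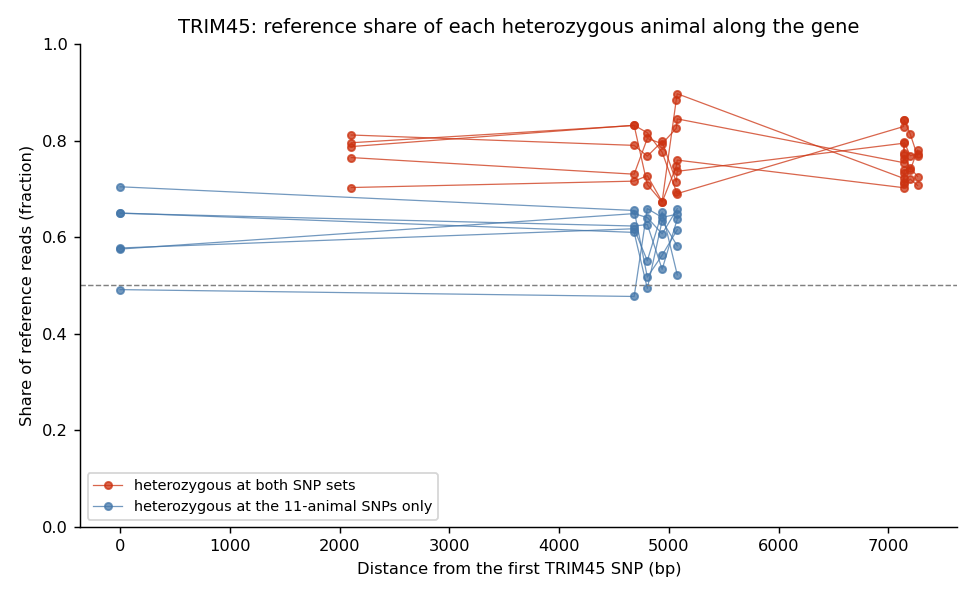
Share of reference reads (y axis, fraction) in each heterozygous animal at the 12 SNPs of TRIM45 against the distance from the first of them (x axis, bp), with lines joining the SNPs of 1 animal. The 5 animals heterozygous at both sets of SNPs (red) averaged 0.768 at the 4 shared SNPs and the 6 others (blue) averaged 0.600, and most single values of both groups lie above the dashed line at 0.5.

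TRIM25, the ligase that activates the RNA sensor RIG-I, had the most SNPs of the RING ligases, 21, with 8 called for the reference and 1 for the alternate allele. The farthest (chromosome 11, position 7268574, missense) had shares from 0.569 through 0.660 to 0.708 in 10 animals, with a mean of 0.647 ± 0.046 and no read of the other base in homozygous animals. At 7268446 the direction turned, with 0.404 ± 0.044 and 0 of 9 animals above 0.5. Both are in coding sequence. At 4 of the 3' UTR SNPs of TRIM25, each heterozygous in the same 5 animals, RS918 had 0.68 to 0.70 and RS905 had 0.40 to 0.48, and none of these 4 was called.

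FBXO22, an F-box adaptor, had SNPs in both directions in the same animals. At positions 30243672, 30251027 and 30253916 of chromosome 18 the same 5 animals were heterozygous, with means of 0.363 ± 0.050, 0.368 ± 0.069 and 0.420 ± 0.055, and all 5 animals were below 0.5 at each. At 30251025, a missense SNP 2 bp from the middle one, 8 animals had shares above 0.5 and a mean of 0.640 ± 0.057. The 3 animals heterozygous at both neighbours, RS920, RS929 and RS953, had 0.65, 0.72 and 0.69 at the one and 0.37, 0.29 and 0.32 at the other. In these 3 animals the share of the one SNP was close to the share that remained at the other.

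FBXL17 had a 5' UTR SNP at 0.624 ± 0.056, above 0.5 in 14 of 14 animals (exact sign-flip permutation test, two-sided, p = 1.22e-04). FBXO18, a helicase with an F-box, had 3 called SNPs of 16, the farthest at 0.660 ± 0.071 (n = 7) with no read of the other base in 11 homozygous animals. FBXW8, an adaptor of CUL7, was called at 1 SNP of 7 while its animals differed at 6 of the 7. In FBXW8, RS947 was the lowest animal at 6 of the 7 SNPs with 0.23 to 0.37, and the highest animal at each of these 6 had 0.54 to 0.65. Among deubiquitinases, USP22, part of a chromatin-modifying complex, had 3 called SNPs of 7 at 0.592, 0.611 and 0.568, and USP7, which stabilises p53 and its ligase, had 2 of 5 at 0.566 and 0.562.

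USP24, a deubiquitinase, had animals that differed beyond counting error at 3 of its 12 SNPs, and no call over animals at any of them. At position 29168656 of chromosome 1 (3' UTR) all 18 animals were called heterozygous, and the shares ran from 0.091 in RS940 through a median of 0.248 to 0.800 in RS933 (dispersion 11.5, adjusted P for a difference between animals = 2.48e-30, chi-square test). There were 7 animals between 0.52 and 0.80 and 11 between 0.09 and 0.35. At 29201321 (synonymous) the 5 heterozygous animals of USP24 had 0.32, 0.42, 0.51, 0.54 and 0.82. Of the 82 member SNPs whose animals differed, 70 had animals on both sides of 0.5, 58 were not called over animals and 36 were also missed by the LRT. Of the 43 genes with such a SNP, 21 had no SNP called over animals. The test over animals divides by the same spread that selects these SNPs. Few calls and animals on both sides therefore follow in part from the selection. The same counts were not taken over all SNPs.

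VCP, the segregase, had 1 SNP with a share of 0.513 ± 0.027 (n = 7), which was not called. In its group the single call was at UBXN2B, a cofactor, with 0.591 ± 0.095 (n = 12) at 1 of 8 SNPs. Splice site SNPs in TRIM8 and USP36 had means of 0.480 ± 0.118 and 0.494 ± 0.043 over 18 animals and were not called. By consequence, 74 of 417 synonymous SNPs (17.7%, background 20.9%), 31 of 89 missense SNPs (34.8%, background 28.9%) and 38 of 165 SNPs in a 3' UTR (background 27.1%) were called over animals. By the LRT the counts were 156 of 417 (37.4%, background 41.4%), 38 of 89 (42.7%, background 47.6%) and 75 of 167 (44.9%, background 50.1%).

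A separate measure used the total reads at a SNP rather than their split. To ask whether expression follows the genotype between animals, the log2 of total reads in RPM (reads at the SNP scaled to all SNP reads of the animal) was regressed on the number of alternate alleles. The slope passed at 18 of 675 member SNPs (2.67%) in 14 genes, against 3.69% of all SNPs tested, and an unadjusted P-value under 0.05 was reached at 102 (15.1%, background 17.2%). Total reads were lower with the alternate allele at 16 (background 2.95%) and higher with it at 2 (background 0.733%). The count of 18 fell to 11 without RS902, RS930, RS933 or RS969.

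CUL4A, the scaffold of a ligase active in DNA repair, gave a slope across all 3 genotypes at its missense SNP (chromosome 10, position 85898708). Total reads were 39.0, 48.9 and 51.2 RPM (lowest, median and highest) in the 6 animals called 0/0, 29.4, 35.8 and 48.0 in the 9 called 0/1, and 26.5, 28.9 and 32.5 in the 3 called 1/1. The levels fell from group to group, with overlap between 0/0 and 0/1 and between 0/1 and 1/1. The slope was -0.34 ± 0.068 (SE) on the log2 scale per alternate allele (adjusted P = 0.00543, moderated by limma). Within heterozygous animals the reference allele of CUL4A was the higher one in 9 of 9, with a share of 0.606 ± 0.036 (exact sign-flip permutation test, two-sided, p = 0.00391).

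At the missense SNP of USP5 (chromosome 3, position 207542450), total reads were 18.7, 20.4 and 23.4 RPM in 8 animals called 0/0 and 11.3, 15.7 and 18.6 in 10 called 0/1. The groups did not overlap, and the slope was -0.42 ± 0.096 (adjusted P = 0.0155). The share was 0.636 ± 0.049, above 0.5 in 10 of 10 animals. FBXO22 at position 30243627 had 16.6, 19.2 and 21.9 in 8 animals called 0/0 and 12.1, 14.6 and 15.9 in 10 called 0/1, again without overlap (slope -0.42 ± 0.082, adjusted P = 0.00452), with a share of 0.556 ± 0.063 that was not called over animals (adjusted P = 0.0634). PSMD5 at 2685427 had 10.5, 14.6 and 18.96 in 9 animals called 0/0, 7.81, 10.0 and 12.6 in 8 called 0/1, and 5.71 in the 1 called 1/1 (slope -0.58 ± 0.102, adjusted P = 0.00185). These SNPs were picked for their small slope P-values, so the separation of their groups follows in part from that choice.

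**Figure D5:**
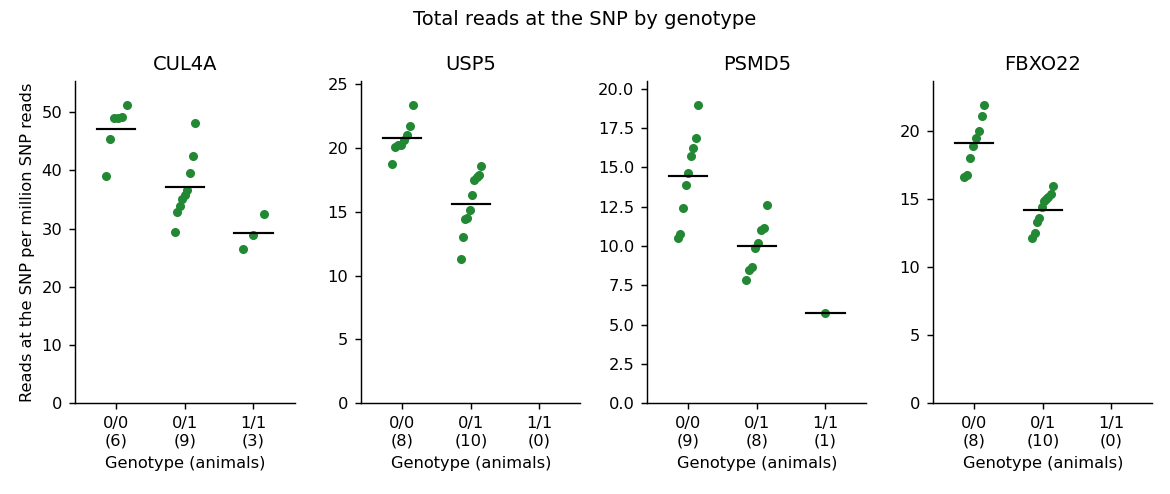
Total reads at the SNP in RPM (y axis, scaled to all SNP reads of the animal) by genotype (x axis, animals in brackets) for CUL4A, USP5, PSMD5 and FBXO22, with points for animals and bars at group means. The SNPs were picked for their small slope P-values. The group means fall with the alternate allele, and in USP5 and FBXO22 the 0/0 and 0/1 groups do not overlap.

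FBXO9, BAP1, KLHL25, KLHL36, PSME4, RNF214, TRIM44 and USP53 also had fewer reads with the alternate allele, with slopes between -0.67 (KLHL36) and -0.24 (KLHL25). BAP1, a deubiquitinase of histone H2A, had a slope of -0.30 ± 0.082 (adjusted P = 0.0458) and a share of 0.596 ± 0.056 (n = 7). NEDD9, which is outside the system, and RNF215 had more, with slopes of 0.42 and 0.30 and shares of 0.401 and 0.392. At 18 of the 18 SNPs the slope and the share pointed to the same allele as the lower one, and 9 of them were also called over animals. Over all SNPs past the slope test the 2 measures pointed to the same allele at 780 of 815 (95.7%), and 601 of the 815 were also called. Both measures include the reads of the heterozygous animals, so their directions are not independent.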

How the data were processed

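RNA of PRAT from 18 fetuses was sequenced by the authors as paired end reads, aligned to Oar v3.1 with STAR (only uniquely placed reads), and SNPs and genotypes were called from the same reads with GATK (3.4-46 in the submitters' processing notes). The deposited table holds, per SNP and animal, raw counts of reference and alternate reads without normalization and a genotype call. The authors describe a filter of 10 reads per allele in 5 or more heterozygous animals. Of the 24355 SNPs, 24106 had 5 or more animals called 0/1. The table's columns of test statistic, P-value, higher allele and reference proportion are the authors' own comparisons and were not used. Reads of animals called 0/1 were kept. The Poisson LRT used 2 times the log likelihood ratio and an unadjusted P-value under 0.05, since the count tests of other tools cannot take a different set of animals at each SNP. AI over animals was tested with a quasi-binomial F test, the dispersion moderated with limma 3.58.1 (squeezeVar, R 4.3.3) and kept at 1 or above, and differences between animals with a Pearson chi-square test, both adjusted by Benjamini-Hochberg over all SNPs. Total reads were taken as log2 of RPM with 0.5 added to the reads and fitted at SNPs with 3 animals in each of at least 2 genotypes. Single SNPs were tested by exact sign flips over animals. Depth is given as reads; intervals were not needed for summed counts, and the spread between animals is the error. P-values treat the 18 half-sib fetuses as independent. Alignment favouring the reference base was not corrected, and 0.5 was the null share. The tests were checked on simulated data. No file held the sequence around the SNPs. SNPs named were the 20 genes farthest from 0.5, the gene with most SNPs in each role, the 6 largest dispersions, splice and stop SNPs, the 5 farthest missense SNPs, the 10 smallest P-values for total reads, and all PSM genes; others were chosen after their values were seen. Some items under this rule are not reported here. The members and lists were chosen with earlier results of these data known. Alternatives were other thresholds of depth, null share, filters and animals.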

Additional observations from a re-analysis of the deposited data

Results flagged for a closer look

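At 2 of the 16 named SNPs with few enough heterozygous animals to be examined, a single animal stood far from the others. At the PSMD5 SNP at position 2685426, RS947 had a reference share of 0.143 and the next of the 9 heterozygous animals had 0.447. RS947 was also called homozygous for the alternate allele at the SNP 1 bp away. At the PSME4 SNP at position 70059627, RS953 had 0.379 and the next of 9 animals had 0.553. Chance flags about 1 in 20 groups in this way.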

How the results depend on the processing

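The number of member SNPs called by the LRT fell from 298 to 181 with 20 reads of each allele required in 5 heterozygous animals. It was 126 with 30 reads. Fewer SNPs were tested at these depths, and how many was not counted. With 30 reads, AI over animals was called at 84 SNPs in place of 161, the animals differed at 53 in place of 82, the median reference share was 0.512 in place of 0.516, and 52 genes were called in place of 109. With 20 reads, 56 SNPs had all heterozygous animals on one side in place of 96. Taking animals as replicates called 67 genes in place of 109. Keeping SNPs whose homozygous animals carried on average under 1% of the other base, a filter chosen after seeing the data, left 102 SNPs called over animals. That filter also removed the SNPs without a homozygous animal to compare. The share called over all SNPs was not taken with this filter or at these read depths. Leaving out each animal in turn gave 286 to 300 SNPs by the LRT, 146 to 160 over animals, 71 to 89 whose animals differed and 11 to 18 whose total reads followed the genotype; the last count was 11 without RS902, RS930, RS933 or RS969. With females only, the exact sign-flip p at UBE3A 1323471 rose to 0.0625 (share 0.872), the smallest that its remaining heterozygous animals allow. At PSME4 70059627 the exact sign-flip p rose to 0.0547 (share 0.596). No result reversed its direction under any alternative run. No paired analysis was possible because the samples form a single group with no second condition to pair; the alleles were compared within each animal. Depth limits the precision most at SNPs near 10 reads per allele, and alignment towards the reference base was not measured here.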
